A study of Mus musculus with 8 samples.

Results

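The genes described here encode the protein complex that couples the electrical signal of a muscle fibre to calcium release: the voltage-gated calcium channel of the transverse tubule, the ryanodine receptor of the sarcoplasmic reticulum, and the proteins that join them. They were the 10 genes of a fixed list, Ryr1, Cacna1s, Cacna2d1, Cacnb1, Cacng1, Cacng6, Stac3, Jph1, Jph2 and Jsrp1. Every non-control probe whose RefSeq transcript belongs to one of them was taken, which gave 12 probes among the 55681 on the array and 10 genes among the 20145 with a named probe. Cacna1s and Cacna2d1 had 2 probes each and the other genes 1. The study measured RNA in the extensor digitorum longus of male C57BL/6 mice, a hindlimb muscle made mostly of fast-twitch fibres, on single-colour Agilent arrays, 1 for each of 8 mice. In 4 mice, called PCKO, Ep300 and Crebbp, the genes for the acetyltransferases p300 and CBP, were deleted in skeletal muscle by an inducible knockout whose driver the labels do not name. Their genotype field mentions only CBP. The other 4 mice were wild-type (WT). The labels of both groups give the same protocol, tamoxifen by gavage on 5 days from an age of 13 to 15 weeks, with muscles taken 1 day after the last dose and a 4 h fast.

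In a skeletal muscle fibre, depolarisation moves the voltage sensor of the channel subunit CaV1.1, which opens the ryanodine receptor RyR1 through physical contact and lets calcium out of the sarcoplasmic reticulum. The contact is made at the triad, where a transverse tubule lies between 2 sacs of the reticulum. At the triad CaV1.1 works with its accessory subunits and the adaptor STAC3, and the junctophilins hold the membranes together.

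The arrays shared 1 slide, and each of its 2 rows held 2 mice of each group. Per array, 43.5% to 46.1% of probes were well above background, and saturation was seen at 0 non-control spots. The 12 skeletal muscle markers (Acta1, Ckm, Myh4 and others) were well above background on every array. All 12 passed as lower with the scaling used here, and 8 did when centred on spike-in controls. Of 8 heart markers, Myl7, Nppa, Nppb and Ryr2 were well above background on no array. Myh6, Myl4 and Tnnt2 were well above it on every array and passed as lower, at -1.58, -1.80 and -1.56. Ep300 differed by -1.44 ± 0.11 (standard error) and Crebbp by -0.70 ± 0.11 at 1 probe each; whether these probes lie in the deleted parts is not known here. Centred on spike-ins they were at -0.76 (adjusted p = 0.022) and -0.02 (adjusted p = 0.96). Values are log2 processed intensities minus the 75th percentile of the array, so a value of 0 is the level of that percentile. Log2 differences are given as PCKO minus WT, each with its standard error from a limma fit over all 24872 probes well above background on at least 4 arrays, 4 mice per group. Adjusted p-values are Benjamini-Hochberg values of that fit, with a threshold of 0.05.

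All 10 genes were lower in PCKO muscle, at all 12 probes. The falls ran from 2.80-fold for Cacna2d1 to 46.8-fold for Cacng1, with a median log2 difference of -2.53 over the probes against 0.02 over all probes tested. Each of the 12 probes passed the adjusted p of 0.05, where 31.3% of all probes tested passed toward lower values. All 12 also fell by 2-fold or more, which 13.7% of all probes did. At every probe each PCKO mouse lay below each WT mouse, as at 28.7% of all probes. In a whole muscle, fewer fibres and less of an RNA per fibre cannot be told apart from the level of that RNA alone. The fibre markers themselves spread from 1.39-fold lower for Tnnc2, a troponin of fast fibres, and 1.58-fold for Myh4, a fast myosin, to 21.5-fold for Mylpf, a myosin light chain. The smallest of these depended on scaling, since Tnnc2 was at 0.21 both under quantile normalization (adjusted p = 0.026) and centred on spike-ins (adjusted p = 0.54).

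**Figure D1:**
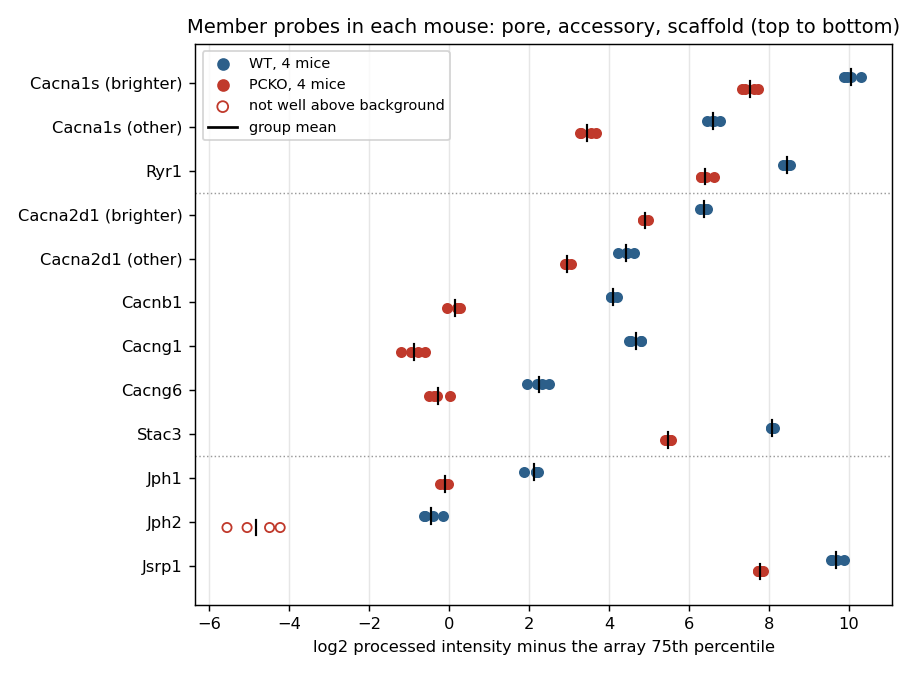
Log2 intensity relative to the 75th percentile of each array (horizontal axis) for each member probe (rows), with 1 point per mouse, WT in blue and PCKO in red, and the group mean as a bar; dotted lines separate pore, accessory and scaffold genes. No PCKO point reaches a WT point of the same probe, and the 4 PCKO points of Jph2 are open because they were not well above background.

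The pore-forming genes are Cacna1s (transcript NM_001081023), which encodes CaV1.1, and Ryr1 (NM_009109), which encodes the calcium release channel. At its brighter probe Cacna1s read 10.29, 9.88, 10.06 and 9.95 in the WT mice and 7.73, 7.39, 7.62 and 7.32 in the PCKO mice. In processed intensity these were 125981 to 137292 units in WT and 24893 to 36016 in PCKO. The groups lay more than 2 log2 units apart at their nearest points. The difference was -2.53 ± 0.13, a 5.78-fold fall (adjusted p = 8.1e-07). The other Cacna1s probe read 6.77, 6.45, 6.61 and 6.58 in WT and 3.66, 3.27, 3.54 and 3.31 in PCKO, a difference of -3.16 ± 0.12 or 8.93-fold (adjusted p = 1.5e-07). Both probes are designed on the same transcript, and each separates the groups. Their sizes differed: the gap between the probes was 3.37 to 3.52 log2 units in the WT mice and 4.02 to 4.13 in the PCKO mice. Ryr1 read 8.46, 8.34, 8.51 and 8.44 in WT and 6.42, 6.30, 6.62 and 6.29 in PCKO. It thus fell to 24.5% of its WT level, with a difference of -2.03 ± 0.10 (95% confidence interval -2.25 to -1.81, adjusted p = 6.0e-07).

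The accessory genes moved by the most unequal amounts. Cacng1 (NM_007582) encodes the gamma subunit of the muscle channel, a small membrane protein that dampens its current. It read 4.50, 4.53, 4.80 and 4.80 in WT and -0.97, -0.77, -0.61 and -1.21 in PCKO, or 2475 to 3530 intensity units against 67.2 to 120.0. It remained well above background in all 4 PCKO mice at 2.13% of the WT level, with a difference of -5.55 ± 0.14 (adjusted p = 3.6e-08). With normexp, another background correction, the level was 4.36% of WT, a 22.9-fold fall. Of all probes tested, 0.314% had a lower difference. Cacnb1 (NM_031173) encodes the beta subunit, which sits on the inner face of CaV1.1 and carries it to the triad. It read 4.21, 4.05, 4.04 and 4.09 in WT and 0.21, 0.26, 0.20 and -0.07 in PCKO. The fall was 15.4-fold (-3.95 ± 0.09, adjusted p = 2.6e-08), and 10.2-fold with normexp.

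Stac3 (NM_177707) encodes the adaptor that links CaV1.1 to calcium release. Its values were 8.13, 8.06, 8.03 and 8.04 in WT and 5.45, 5.38, 5.53 and 5.54 in PCKO, among the tightest groups of the set. They differed by -2.59 ± 0.07, or 6.02-fold (adjusted p = 4.8e-08). Cacng6 (NM_133183), another gamma family gene, read 2.32, 1.94, 2.49 and 2.20 in WT and 0.03, -0.38, -0.32 and -0.50 in PCKO. It differed by -2.53 ± 0.15, or 5.78-fold (adjusted p = 2.0e-06). Cacna2d1 encodes the alpha2-delta-1 subunit, an extracellular partner of the channel that many tissues also use. It had the smallest falls of the set, although its groups were well apart. Its brighter probe (NM_001110843) read 6.26, 6.37, 6.45 and 6.41 in WT and 4.85, 4.87, 4.97 and 4.85 in PCKO. The other probe, for transcript NM_009784, read 4.63, 4.43, 4.44 and 4.22 in WT and 2.90, 2.92, 3.04 and 2.95 in PCKO. The differences were -1.49 ± 0.08 (adjusted p = 9.3e-07) and -1.47 ± 0.10 (adjusted p = 4.0e-06), and their 95% confidence intervals overlapped (-1.66 to -1.31 and -1.70 to -1.25).

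Of the scaffold genes, Jph1 (NM_020604) and Jph2 (NM_021566) encode junctophilins, which span from the tubule to the reticulum, and Jsrp1 (NM_028001) encodes JP-45, a junctional protein that binds CaV1.1 and calsequestrin. Jph1 read 2.23, 2.17, 2.18 and 1.86 in WT and -0.10, -0.22, -0.02 and -0.13 in PCKO. The difference was -2.23 ± 0.10, a 4.68-fold fall (adjusted p = 4.8e-07). Jsrp1 read 9.88, 9.55, 9.70 and 9.57 in WT and 7.84, 7.71, 7.80 and 7.71 in PCKO. It fell to 26.6% of its WT level (-1.91 ± 0.09, adjusted p = 7.2e-07). Jph2 was dim in both groups. It was well above background in all 4 WT mice (-0.17, -0.63, -0.40 and -0.62, or 82.9 to 97.6 intensity units) and in none of the PCKO mice (-4.23, -4.50, -5.56 and -5.06). Its PCKO level therefore has no fixed size. With the background correction of the scanner files, Jph2 was 11.3-fold lower when a floor was set on each PCKO array. That estimate sets the WT mean against a PCKO mean. Per array, the PCKO value is the larger of 2, that of the Jph2 probe and the lowest of any probe well above background. This is the lowest floor such probes allow, so 11.3-fold is not a strict lower limit. The fitted difference was -4.38 ± 0.27 (adjusted p = 2.7e-06). With normexp it was -1.54, a 2.90-fold fall, so the size depends on the background correction.

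**Figure D2:**
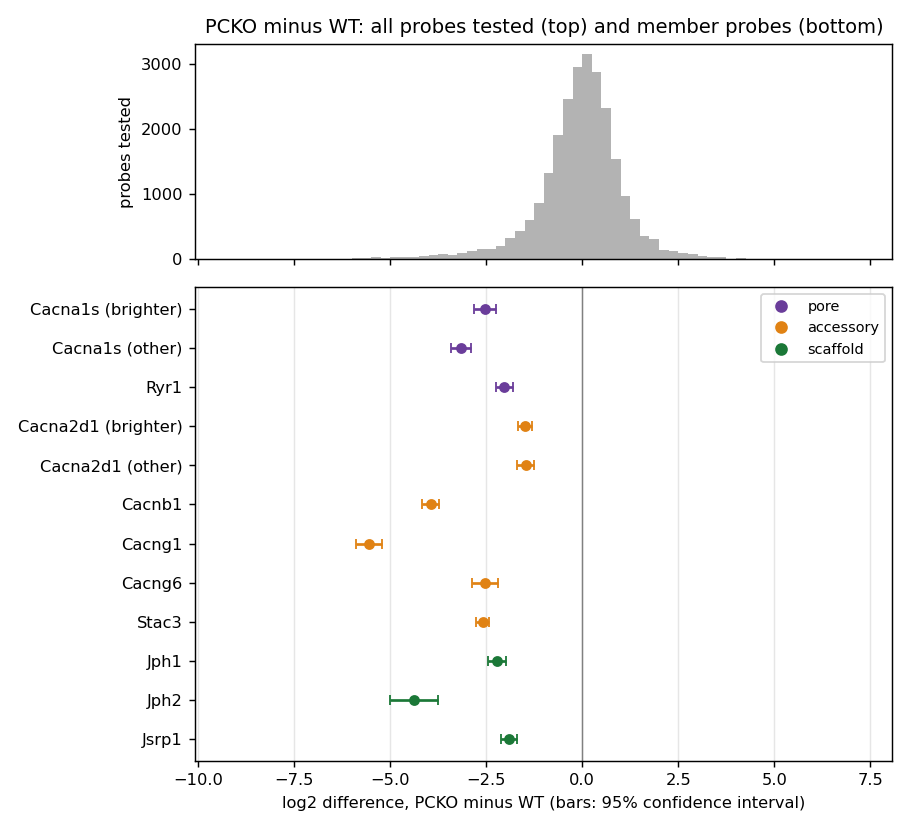
Number of probes in bins of 0.25 log2 units of PCKO minus WT for all 24872 probes tested (top), and the log2 difference of each member probe with its 95% confidence interval on the same axis (bottom), coloured by class. The member probes lie between -1.47 (Cacna2d1, other probe) and -5.55 (Cacng1), on the lower side of a distribution centred near 0.

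As a class, the pore genes had a median log2 difference of -2.28, the 5 accessory genes -2.59 and the 3 scaffold genes -2.23, each gene at its brightest probe. The medians lay close together, while the accessory genes alone spanned -1.49 to -5.55. The class means lay further apart, at -2.28, -3.22 and -2.84 in the same order. The scaffold mean includes the PCKO values of Jph2, which were not well above background. These are descriptions of 10 chosen genes and carry no test.

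Whether members changed by unequal amounts was tested gene by gene, as the log2 ratio of each gene's brightest probe to that of Cacna1s on the same array. A ratio within an array is the same under any scaling by a constant. In the exact permutation tests (two-sided, 4 against 4, 9 pairs, smallest possible p = 0.029) 6 pairs had p = 0.029, or 0.043 after Benjamini-Hochberg adjustment over the pairs. The ratio rose for Ryr1 by 0.50 (SD 0.14 in PCKO and 0.15 in WT, n = 4 each), for Jsrp1 by 0.62 and for Cacna2d1 by 1.05 log2 units. The shifts of Ryr1 and Jsrp1 are no larger than the 0.63 by which the 2 Cacna1s probes differed from each other. That gap lies between probes of the same transcript. Against the other Cacna1s probe, which fell more, both shifts would be larger. At this size, probe response and loss of RNA cannot be told apart for Ryr1 and Jsrp1. The ratio fell for Cacnb1 by 1.41 and for Cacng1 by 3.02 log2 units. The remaining pair was Jph2, whose ratio has no fixed size because its PCKO values were not well above background. With that pair left out, a choice made after seeing the data, 5 of 8 passed (exact permutation test, adjusted p = 0.046). For Stac3 it differed by -0.06 (exact p = 0.69) and for Cacng6 by 0.0007 (exact p = 1), with overlapping groups in both. For Jph1 it differed by 0.30 (exact p = 0.057, adjusted 0.073), so that unequal change was not shown with this processing.

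**Figure D3:**
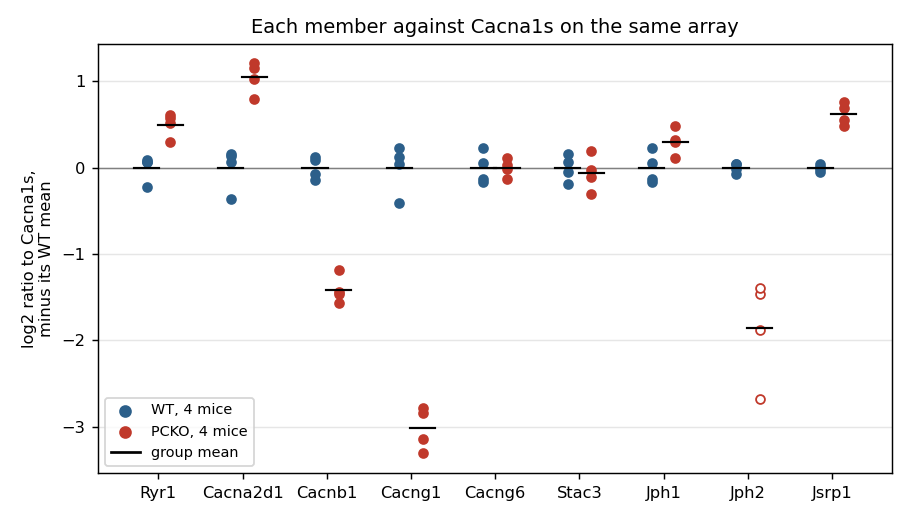
Log2 ratio of each member to Cacna1s on the same array, minus the mean of the WT mice (vertical axis), with 1 point per mouse and the group mean as a bar. PCKO mice lie above all WT mice for Ryr1, Cacna2d1 and Jsrp1, below them for Cacnb1, Cacng1 and Jph2 (open points, not well above background), and among them for Cacng6 and Stac3.

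Some of these ratios depended on the processing. Under quantile normalization the Cacng6 ratio was -0.55 (exact permutation test, adjusted p = 0.037) and that of Jph1 turned to -0.25 (adjusted p = 0.14). With normexp the Jph1 ratio passed, at 0.62 (exact permutation test, adjusted p = 0.037), and the Jph2 ratio turned to 0.76, so that its rank against Cacna1s is not settled. The other Cacna1s probe differed by -0.63 log2 units relative to the brighter one, so ratios set against it would be higher by that amount.

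Sequence upstream of the transcription start was available for 6 of the 10 genes, from RefSeq on build GRCm38.p6. There were 8 windows, since Cacnb1 and Jph2 have 2 starts each. Stac3, Jph1, Cacng1 and Jsrp1 had no entry. The 250 bases before the start are printed 5′ to 3′ for both pore genes, for Cacnb1 and Jph2, and for Cacna2d1. With the processing used here Cacnb1 and Jph2 fell most among the 6 and Cacna2d1 least. The place of Jph2 is not settled, since its PCKO values were not well above background. With normexp it was at -1.54, a smaller fall than that of Cacna1s at -2.30 (brighter probe). Capitals mark the E-box letters CANNTG, the core that myogenic factors such as MyoD recognise. The windows are Cacna1s at chr1:136052561-136052810 (+), Ryr1 at chr7:29125152-29125401 (-), Cacnb1 at chr11:98018373-98018622 (-), Jph2 at chr2:163397974-163398223 (-) and Cacna2d1 at chr5:15934441-15934690 (+).
Cacna1s: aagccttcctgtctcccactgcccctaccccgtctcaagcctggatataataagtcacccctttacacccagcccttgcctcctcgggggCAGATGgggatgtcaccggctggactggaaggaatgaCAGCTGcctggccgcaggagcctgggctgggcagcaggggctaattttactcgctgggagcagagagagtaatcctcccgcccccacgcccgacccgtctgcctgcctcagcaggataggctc
Ryr1: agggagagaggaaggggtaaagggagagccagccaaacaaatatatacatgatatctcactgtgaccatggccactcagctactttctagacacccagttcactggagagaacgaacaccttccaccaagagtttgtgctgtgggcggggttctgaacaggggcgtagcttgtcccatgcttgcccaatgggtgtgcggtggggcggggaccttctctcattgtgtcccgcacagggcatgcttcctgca
Cacnb1: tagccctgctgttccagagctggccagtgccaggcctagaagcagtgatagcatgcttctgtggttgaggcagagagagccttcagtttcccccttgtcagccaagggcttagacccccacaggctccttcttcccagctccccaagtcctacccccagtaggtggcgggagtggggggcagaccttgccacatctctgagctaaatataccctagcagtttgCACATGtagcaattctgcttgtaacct
Jph2: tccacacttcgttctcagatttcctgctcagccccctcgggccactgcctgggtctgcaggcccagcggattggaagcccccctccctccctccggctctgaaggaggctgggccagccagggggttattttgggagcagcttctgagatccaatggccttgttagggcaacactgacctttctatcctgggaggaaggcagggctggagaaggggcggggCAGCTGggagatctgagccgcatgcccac
Cacna2d1: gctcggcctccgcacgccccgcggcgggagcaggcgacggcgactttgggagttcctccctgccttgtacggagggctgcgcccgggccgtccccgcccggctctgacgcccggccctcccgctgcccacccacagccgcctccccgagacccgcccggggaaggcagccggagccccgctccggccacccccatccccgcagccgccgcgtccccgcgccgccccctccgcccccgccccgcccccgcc

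The windows differed in these letters. CANNTG was found 2 times for Cacna1s and for Cacng6, once in the printed Cacnb1 and Jph2 windows, and in neither the Ryr1 nor the Cacna2d1 window. It also was not found at the other Cacnb1 start, and 66.2% of 32536 RefSeq windows of this length hold it on either strand. CAGCTG, a form of CANNTG, was found in the windows of Cacna1s and Jph2 and is in 13.1% of all windows. CATTCC, the letters that TEAD factors recognise, was found for Cacna1s and Cacng6 (12.6% of all windows). The MEF2 motif, the CArG box of SRF and the letters TGACGTCA of CREB were found in none of the 8 windows, and they are in 2.89%, 1.48% and 1.56% of all windows. GC content ranged from 52.8% (Cacng6) to 82.4% (Cacna2d1), with a median of 52.4% over all windows. A match is only a match of letters, and both Cacna1s, with E-box letters, and Ryr1, without them, fell.

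Other genes of the triad were read from 4 lists. These lists were chosen with results of these data known, and each gene is given at its brightest probe. Of 35 listed partners 34 were tested, of which 26 fell and 3 rose, beside 31.9% of all genes tested lower and 37.5% higher. Centred on spike-ins 17 were lower and 5 higher, where 2388 of all 24872 probes tested were lower and 13139 higher. The median of the partners was -1.34 with the scaling used here, against 0.06 over all genes.

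Of 8 genes of the calcium store in the reticulum, 7 passed as lower and 0 as higher (median -3.39). The brightest probe of Asph, whose transcripts encode junctin or an enzyme, was at -5.46 ± 0.10 (adjusted p = 1.4e-08), while its other 3 probes were at -4.76, 0.39 and 0.63. Hrc, a histidine-rich calcium-binding protein of the reticulum, differed by -4.48 ± 0.11 (adjusted p = 2.5e-08). Casq1, the calsequestrin of fast muscle that RyR1 draws on, differed by -3.84 and Trdn, triadin, by -1.96. Tmem38b, a counter-ion channel, differed by -0.41 and did not pass (adjusted p = 0.14).

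Regulators of the channels moved less and both ways, 7 lower and 2 higher of 12 tested, with a median of -0.53. That balance depended on the scaling. Under quantile normalization 5 were lower and 3 higher (median -0.24). Centred on spike-ins 1 was lower and 4 higher (median 0.15), where 2388 of all 24872 probes tested were lower and 13139 higher. Fkbp1b, an immunophilin that binds ryanodine receptors, was 3.68-fold higher (1.88 ± 0.15, adjusted p = 1.3e-05), and 1.74-fold higher with normexp. Its relative Fkbp1a, the main RyR1 partner in skeletal muscle, differed by -0.49 (adjusted p = 0.0035), but its other probe did not pass (0.20, adjusted p = 0.074), and centred on spike-ins the first was at 0.19 (adjusted p = 0.58). S100a1, a calcium-binding activator of RyR1, was higher by 0.55 ± 0.11 (adjusted p = 0.0025). Rrad, an inhibitor of calcium channels, differed by -1.54 ± 0.27 (adjusted p = 0.0011) and was well above background on 2 PCKO arrays, and it was at -0.72 with normexp.

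Among 8 genes of the triad membrane 6 fell and 1 rose. Sypl2, mitsugumin-29, differed by -4.10 ± 0.09 (adjusted p = 1.9e-08) and Speg, a kinase at the triad, by -2.63 ± 0.07 (adjusted p = 4.3e-08). The other 2 Speg probes were at -1.27 and -1.62, and Sypl2 was at -3.30 with normexp. Dnm2, dynamin 2, was the only member of this list higher at its brightest probe (0.34 ± 0.08, adjusted p = 0.0054), but its other probe was lower (-0.31, adjusted p = 0.037). All 6 genes of calcium entry and uptake fell (median -2.45). The 2 probes of Pvalb, which encodes the calcium buffer parvalbumin, were at -5.40 ± 0.19 (the brightest) and -2.26. Sln, sarcolipin, an inhibitor of the calcium pump, differed by -3.14 ± 0.24 (-2.42 with normexp), and Atp2a1, the fast-muscle pump itself, by -2.51 (adjusted p = 9.0e-07).

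**Figure D4:**
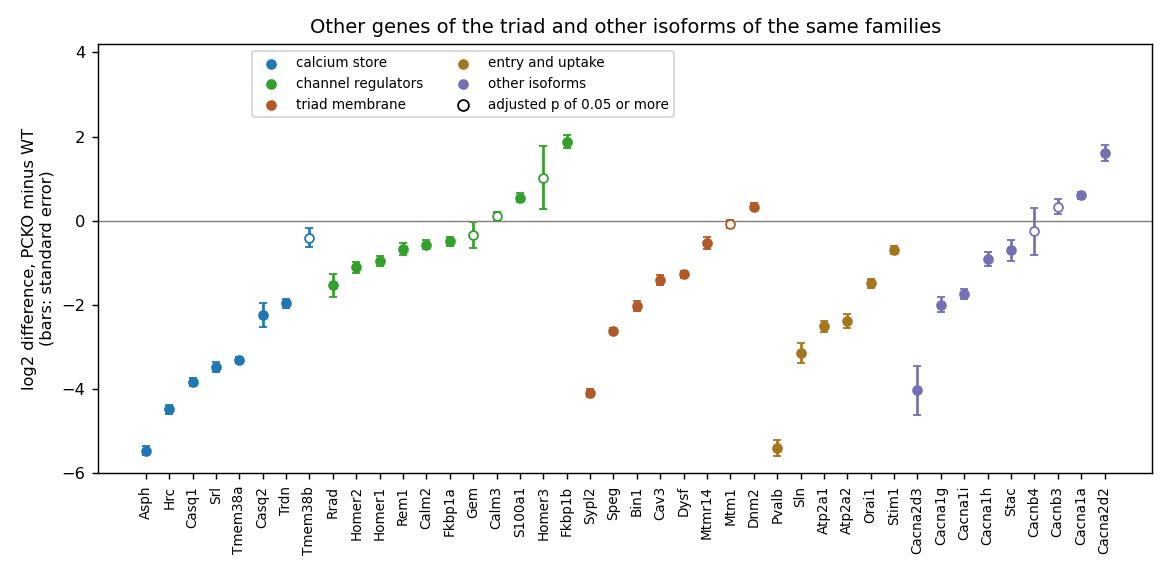
Log2 difference, PCKO minus WT, at the brightest probe of the tested partner genes and isoforms, 1 gene left out (points), with its standard error, coloured by list; open points have an adjusted p of 0.05 or more. The calcium store genes reach -5.46 (Asph), and the highest points are Fkbp1b at 1.88 and Cacna2d2 at 1.60.

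The isoforms that other tissues use in place of the 10 genes were mostly too dim to read. Of 27 listed, 26 had a probe, 14 were well above background on no array, among them Ryr2, Cacna1c and Cacnb2, and 3 only on 1 or 2 arrays. Of the 9 tested, 5 fell and 2 rose, beside 31.9% of all genes tested lower and 37.5% higher. Centred on spike-ins 3 fell and 3 rose (median -0.02), where 2388 of all 24872 probes tested were lower and 13139 higher. Cacna2d2, a relative of Cacna2d1, was 3.04-fold higher (1.60 ± 0.19, adjusted p = 1.3e-04; 0.73 with normexp) and Cacna1a, the pore of the P/Q-type neuronal channel, higher by 0.60 ± 0.08 (adjusted p = 3.2e-04). Cacna2d3 was lower (adjusted p = 3.7e-04), but it was well above background on only 1 PCKO array and its size is not settled. The fitted difference was -4.03 ± 0.58, and it was -1.27 with normexp and -1.42 in the deposited table. Cacna1g, a T-type channel pore, differed by -2.00 ± 0.18 (adjusted p = 2.2e-05), by -0.93 with normexp, and by -1.07 at its other probe.

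Over the 8 arrays, the genes whose values centred on the WT mean lay nearest to those of Ryr1 were Art5, Akap6 and Bin1, among 12303 genes. Their root mean square differences from it were 0.08, 0.09 and 0.09 log2 units. For Cacna1s they were Plec, Neurl1a and Prima1, at 0.10, 0.11 and 0.11. This likeness mainly reflects an equal gap between the groups, which all 8 points share.

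Markers of other cells in the muscle moved with the groups as well. Relative to the 75th percentile, the summed linear level of 9 endothelial markers was 185 to 231 in WT and 106.8 to 139 in PCKO, and 8 of them fell. Of all genes tested 31.9% passed as lower. Summed fibroblast markers, 8 of 8 lower, stood at 587 to 886 against 243 to 357. Macrophage markers, 7 of 9 lower, stood at 38.9 to 50.6 against 17.9 to 31.3. The smooth muscle list of 8 had 7 markers tested, all lower, at 153 to 181 against 73.8 to 91.8. Of the 7 nerve and Schwann cell markers 5 were tested, 1 higher and 1 lower, at 21.7 to 34.7 against 14.6 to 32.2. Tubb3 was well above background on no array. Of the 4 satellite cell markers 3 were tested and 2 were lower, at 1.51 to 1.79 against 0.71 to 0.93. Pax7 did not pass (0.82, adjusted p = 0.12), and Myf5 was well above background on no array. Centred on spike-ins 0 of the endothelial, 6 of the fibroblast, 1 of the macrophage and 0 of the smooth muscle markers passed as lower. In that scaling 2388 of all 24872 probes tested did. The part of these cells in the member results was not tested.

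The falls of the members held in both rows of the slide. Within row 1 alone, with 2 mice per group, the log2 differences were -2.53 for the brighter Cacna1s probe, -2.04 for Ryr1, -3.89 for Cacnb1 and -5.39 for Cacng1. In row 2 alone they were -2.54, -2.02, -4.00 and -5.71. With the row as a block all 12 probes passed, with the values unchanged by the balanced layout. The scaling bears on the sizes. Relative to 7 spiked-in control probes, the 75th percentile itself was higher in PCKO (-3.20 to -2.40 against -3.89 to -3.24 in WT, ranges that did not overlap). Centred on those spike-ins the median of all probes tested moved from 0.02 to 0.71, and the split of calls from 51.9% to 84.6% higher. All 12 member probes still fell, the brighter Cacna1s probe by 1.85, Ryr1 by 1.35, Cacng1 by 4.87 and Cacna2d1 by 0.80 and 0.79 log2 units (adjusted p = 0.015 and 0.016 for the last pair). Error shared by all probes of an array makes p-values of that scaling too small.

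**Figure D5:**
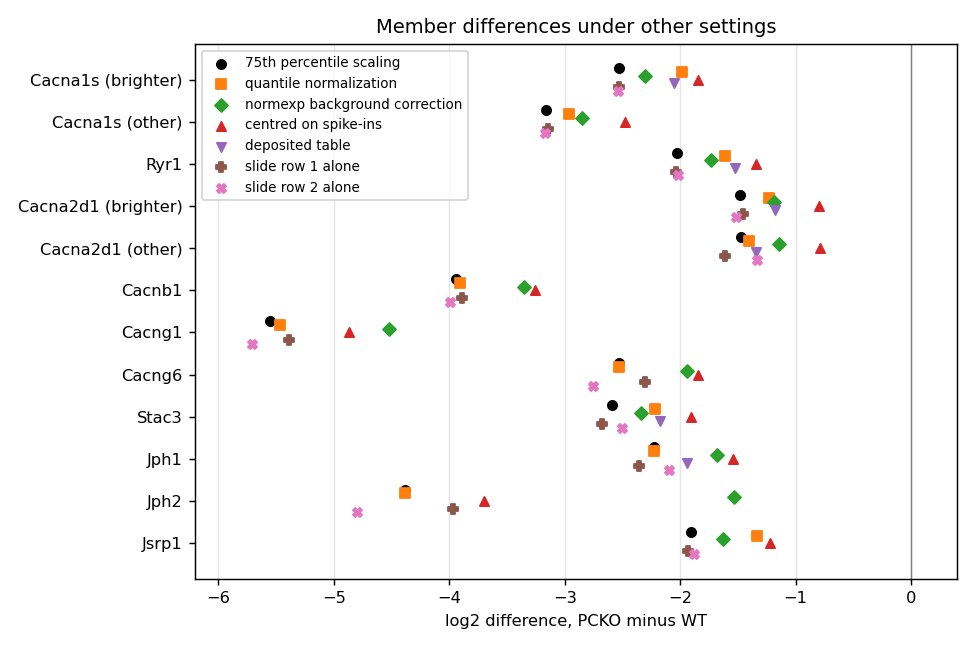
Log2 difference, PCKO minus WT (horizontal axis), of each member probe (rows) with the 75th percentile scaling used here and under 6 other settings (symbols); the deposited table holds 6 of the 12 probes. Every point lies below 0, the nearest being Cacna2d1 centred on spike-ins at -0.80 and -0.79, and Jph2 ranges from -4.80 to -1.54.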

How the data were processed

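Processed spot intensity values, deposited as scanner files for 8 arrays, had already been corrected for background and for spatial trend per the file headers, which name Feature Extraction 10.7.3.1. The array design is annotated on mm9. The deposited series table holds log2 values from the authors; their normalization is not given in the sources read here. Outlier spots were left out (117 to 336 an array), spots of a probe averaged, log2 values scaled to the array's 75th percentile, and probes named by RefSeq transcript (26582 with 1 gene symbol, 29099 with none). The 2 groups were fitted across probes in limma (version 3.58.1, R 4.3.3), and the fit was tested on simulated data. The number of arrays, 4 per group, limits the precision. Members, classes and lists were chosen with earlier results of these data known. Named genes are all members, the 2 largest changes per direction in each list, the 3 nearest patterns to Ryr1 and Cacna1s, and both targeted genes, besides Casq1, Trdn, Tmem38b, Fkbp1a and Atp2a1, which were picked for their role after their values were seen. A gene that this rule names among the channel regulators is counted in its list but not reported here. Alternatives are given in the closing section.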

Additional observations from a re-analysis of the deposited data

Results flagged for a closer look

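In 2 of 54 groups of 4 mice, 1 mouse stood far from the others by Dixon's test at the 95% level, which chance alone gives in about 1 group in 20. For Cacnb1 in PCKO, mouse 4 read -0.066 where the others read 0.20 to 0.26. For Jph1 in WT, mouse 4 read 1.86 where the others read 2.17 to 2.23. Without that mouse Cacnb1 differed by -3.87 and Jph1 by -2.31.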

How the results depend on the processing

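All 12 member probes kept their direction and their call under each alternative in which they were tested: quantile normalization, centring on the median or on spike-ins, normexp, no filter or a stricter filter (which drops Jph2), outlier spots kept, an intensity trend, array weights, 1 value a gene, the deposited table, slide row as a block or alone, and each mouse left out. Of the 12 probes the deposited table holds 6, and these 6 were lower. Without each mouse in turn 12 to 12 probes were lower, partner genes lower numbered 26 to 27 and higher 3 to 3, and isoforms lower 4 to 5 and higher 2 to 3. Centred on spike-ins, partner genes were 17 lower and 5 higher of 34 and isoforms 3 lower and 3 higher of 9. Of all 24872 probes tested, 2388 were lower and 13139 higher in that scaling. With probes well above background on all arrays 2 isoforms were lower of 5 tested. In the deposited table partners were 13 lower of 21 present and isoforms 1 higher of 6 present, and in slide row 1 alone 1 partner was higher. For the tested ratios to Cacna1s, 0 of the 4 pairs present in the deposited table passed the exact permutation test of 4 against 4. Ryr1 was at 0.53 and Cacna2d1 at 0.87 (each adjusted p = 0.057 over the 4 pairs in that test). With so few pairs, a pair at the smallest possible p passes only if most pairs reach that p. Failing here therefore does not show equal change. Under quantile normalization and normexp 7 of 9 pairs passed. The Cacng6 ratio was -0.55 and the Jph1 ratio -0.25 under quantile normalization, and the Jph2 ratio was 0.76 with normexp; the cause was not tested. Within a row a ratio cannot reach the threshold. Without each mouse and within a row the ratios were read as values alone.

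Same-numbered mice of the groups did not deviate together (correlations of 0.02 to 0.09 over probes), and the labels do not say that the numbers pair them. With the replicate number as a block 12 member probes were still lower (adjusted p = 1.6e-05 to 2.3e-04), 26 partners were lower and 3 higher, and 5 isoforms were lower and 2 higher. Low signal limits Jph2 in PCKO, Cacna2d3 and Rrad.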
